A study of Arabidopsis thaliana with 6 samples.

Results

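The WRKY genes encode one of the large families of plant transcription factors, and 59 of them, chosen by gene identifier, were read among the 37184 gene identifiers counted in 6 RNA-seq libraries of Arabidopsis seedlings. The study asked which genes alter their expression when AtNOL12, a nucleolar protein that takes part in pre-rRNA processing, is impaired. Whole 14-day-old seedlings were used, 3 libraries of the *nol12-4* line, which carries a GABI-Kat T-DNA insertion in AtNOL12, and 3 libraries of WT, the Col-0 accession that is also the background of the line. Both genotypes were grown untreated, in long days, on MS medium with sucrose. The mutant is a single insertion line, and each library is a biological replicate of whole plants, so that fewer cells of a type and less RNA per cell cannot be told apart. Nothing states that replicates came from separate sowings, and p-values then measure only the spread between these libraries.

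WRKY factors bind DNA through the WRKY domain, a stretch with a conserved heptad followed by a zinc finger, and most recognise the W box, a short promoter element. Many are induced by pathogens, by salicylic acid or by wounding, act downstream of MAP kinases, and control each other's genes, while others act in seeds, roots, trichomes, senescence or phosphate uptake. The family is divided by its domains into group I, which has a pair of WRKY domains, group II (IIa to IIe), which has a single domain, and group III, whose zinc finger is of a different type. The domains of the 59 genes were counted in the translated reference coding sequences, and each gene held at least 1 heptad. A second heptad was found in 11 of the 12 group I genes and nowhere else, the exception in group I being WRKY10, and the group III type of zinc finger was found in the 9 group III genes alone.

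Because WRKY factors are known to act on WRKY promoters, the 250 bases before the annotated start of 6 genes are shown, 3 group III or group IIe genes with several W boxes (WRKY30, WRKY62 and WRKY29), WRKY28 with a single one, and WRKY54 and WRKY57 with none. The sequences come from the RefSeq assembly TAIR10.1, run 5′ to 3′ on the strand of the gene, and carry the W box (TTGACC or TTGACT, or on the other strand GGTCAA or AGTCAA) in capitals. They lie at chr5:8154711-8154960 (minus strand) for WRKY30, chr5:352096-352345 (minus strand) for WRKY62, chr4:12291382-12291631 (plus strand) for WRKY29, chr4:10060964-10061213 (plus strand) for WRKY28, chr2:17002529-17002778 (minus strand) for WRKY54 and chr1:26058384-26058633 (minus strand) for WRKY57, and no other annotated gene overlaps any of these windows.
WRKY30: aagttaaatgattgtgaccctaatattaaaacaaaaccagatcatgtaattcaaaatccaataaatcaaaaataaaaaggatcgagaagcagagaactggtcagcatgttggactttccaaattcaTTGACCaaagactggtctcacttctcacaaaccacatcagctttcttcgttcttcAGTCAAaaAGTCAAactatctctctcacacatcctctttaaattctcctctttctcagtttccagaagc
WRKY62: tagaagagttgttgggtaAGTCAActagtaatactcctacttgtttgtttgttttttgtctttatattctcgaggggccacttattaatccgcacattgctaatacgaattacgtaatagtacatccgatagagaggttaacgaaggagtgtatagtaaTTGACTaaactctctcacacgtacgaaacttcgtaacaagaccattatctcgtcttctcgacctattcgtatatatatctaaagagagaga
WRKY29: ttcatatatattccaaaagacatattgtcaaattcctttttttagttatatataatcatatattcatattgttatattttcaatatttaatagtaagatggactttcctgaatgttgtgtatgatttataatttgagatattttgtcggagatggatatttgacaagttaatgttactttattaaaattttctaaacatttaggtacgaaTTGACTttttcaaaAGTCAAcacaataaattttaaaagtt
WRKY28: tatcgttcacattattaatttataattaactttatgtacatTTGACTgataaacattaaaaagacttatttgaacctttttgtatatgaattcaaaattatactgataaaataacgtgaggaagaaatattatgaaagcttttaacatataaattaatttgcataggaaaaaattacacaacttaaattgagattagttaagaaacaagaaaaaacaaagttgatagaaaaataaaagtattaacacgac
WRKY54: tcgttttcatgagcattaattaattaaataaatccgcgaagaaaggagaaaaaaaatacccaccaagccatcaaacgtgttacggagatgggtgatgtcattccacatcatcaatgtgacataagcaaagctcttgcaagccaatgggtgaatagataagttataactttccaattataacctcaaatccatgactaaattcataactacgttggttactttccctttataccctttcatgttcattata
WRKY57: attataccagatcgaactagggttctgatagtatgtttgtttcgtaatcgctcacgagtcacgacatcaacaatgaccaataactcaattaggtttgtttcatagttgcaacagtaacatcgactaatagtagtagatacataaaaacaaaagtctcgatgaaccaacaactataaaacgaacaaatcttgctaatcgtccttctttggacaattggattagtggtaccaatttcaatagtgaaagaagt

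In WRKY30 the 3 W boxes begin at positions -124, -69 and -61 relative to the start, in WRKY62 at -232 and -91, in WRKY29 at -40 and -26 and in WRKY28 at -209. In a window of 300 bases (250 before and 50 after the start), searched on both strands, 22 of the 59 WRKY genes (37.3%) held a W box, against 32.4% of 27437 protein-coding genes. Promoters with 2 or more W boxes made up 18.6% of the WRKY genes (11 genes) and 7.69% of all. These counts describe letters in the reference sequence and not sites in use.

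The libraries held 56627497 to 74162060 counts on genes under the *nol12-4* label and 67444306 to 75001252 under WT. AtNOL12 itself (AT1G11240) had 1186, 770 and 2142 counts in the libraries labelled *nol12-4* and 663, 642 and 894 counts in WT, so its gene count was not lower under the *nol12-4* label, and a count per gene does not separate the parts before and after an insertion. The study also examined AtNOL12 mRNA in this line on northern blots, which are not analysed here. The name *nol12-4* stands throughout for the libraries that carry this label, and each direction given for the mutant rests on it. Several genes of the circadian clock set some libraries apart from others of their group. CCA1, a morning gene of the clock, had 96.8, 94.1 and 2.44 CPM (gene counts scaled to the TMM-normalized size of the library) in *nol12-4* replicates 1, 2 and 3, and 1.10, 1.53 and 3.52 CPM in WT, while TOC1, an evening gene, had 14.7, 13.1 and 120 CPM in *nol12-4* and 130, 126 and 141 CPM in WT. In both genes *nol12-4* replicates 1 and 2 stood apart and replicate 3 lay near WT. In other clock genes WT replicate 3 stood apart from WT replicates 1 and 2: PRR5 had 5.45, 8.15 and 31.8 CPM in *nol12-4* and 28, 30 and 82 CPM in WT, and PRR7 had 73.5, 84.7 and 45.8 CPM in *nol12-4* and 31.3, 31.6 and 121 CPM in WT. GI and LUX were also highest in WT replicate 3, the library in which most WRKY genes had their lowest WT value, and the part of the clock genes in those values was not tested. DESeq2 called 3 of 8 clock genes higher in *nol12-4* (CCA1, LHY and PRR9, background 6.2%) and gave TOC1 no adjusted p. Of 9 clock genes edgeR called 0 (background 0.226% higher), with 3 higher at an unadjusted p under 0.05 (background 12.1%). The markers of root and leaf, which define a whole seedling, were counted in full, and their sums did not overlap between genotypes. The summed level of the 11 root markers was 32.1 to 40.9 CPM in *nol12-4* and 14.8 to 19.5 CPM in WT, and that of the 9 leaf markers was 12800 to 20200 CPM in *nol12-4* and 8200 to 10900 CPM in WT. Taken singly, 8 of the 11 root markers and 3 of the 9 leaf markers lay above all WT libraries in every *nol12-4* library (background 14.5%). CAB1, a leaf marker, was highest in WT replicate 3 (4660 CPM). By DESeq2, 4 root markers (COBL9, EXPA7, CASP2 and IRT1) and 1 leaf marker (RCA) were higher in *nol12-4* (background 6.2%). By edgeR 0 were called (background 0.226% higher), with 6 and 4 higher at an unadjusted p under 0.05 (background 12.1%). No marker of either list was without a count, and the part of these differences in the WRKY levels was not tested.

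Most WRKY genes had lower estimates in *nol12-4*, but with 3 libraries per genotype no member passed the main test. The 53 WRKY genes that passed the filter on low counts had a median log2 fold change (*nol12-4* over WT) of -0.43, whereas the median over the 21705 genes tested was -0.01. In *nol12-4* the estimate was lower for 42 of the 53 (79.2%, against 51.0% of all genes tested) and higher for 11. By the edgeR quasi-likelihood test with Benjamini-Hochberg adjustment, 0 of the 53 were called lower (background 0.0691%) and 0 were called higher (background 0.226%), and the lowest adjusted p was 0.0681, for WRKY28. At an unadjusted p under 0.05 the same test gave 19 lower members (background 7.91%) and 3 higher members (background 12.1%). DESeq2, which the study used, called 11 of 58 WRKY genes lower (19.0%, background 3.21%) and 2 higher (3.45%, background 6.2%), and limma-voom called 0 of 53 lower (background 0.0783%) and 0 higher (background 0.318%). Since the main test made no call, the 13 genes named by DESeq2 are described by their libraries, and those called by DESeq2 alone are said to be so. In all 13, the 3 *nol12-4* libraries lay wholly above or wholly below the 3 WT libraries. The 13 were picked from these same libraries, so the separation is not independent support for the calls. Over the tested members, libraries were separated in this way for 14 lower genes (26.4%, background 11.6%) and 4 higher genes (7.55%, background 14.5%).

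**Figure D1:**
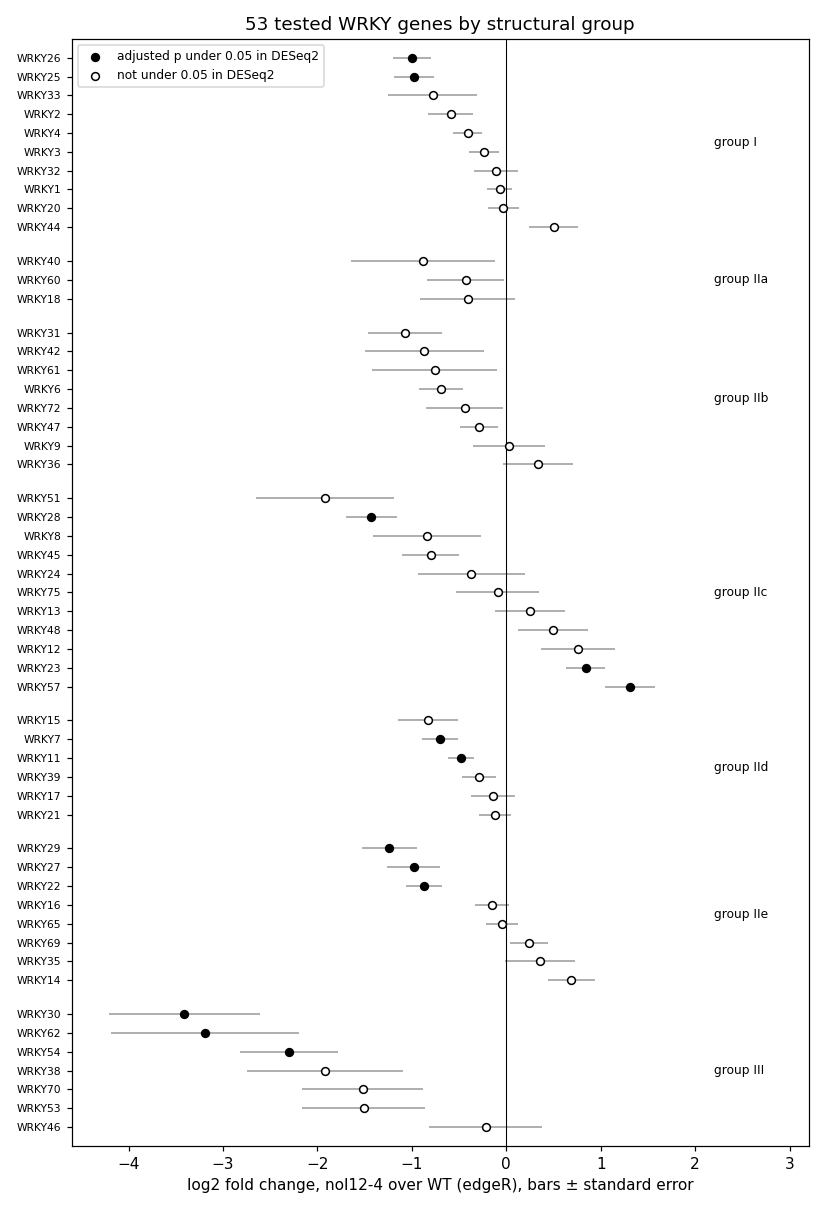
The log2 fold change of *nol12-4* over WT is plotted for the 53 tested WRKY genes, ordered within structural groups, with bars for ± standard error and filled points for the 13 genes that DESeq2 called. The 7 tested members of group III all lie left of 0, from -3.41 for WRKY30 to -0.22 for WRKY46, and WRKY57 of group IIc lies farthest right at 1.31.

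The lowest estimates belonged to group III, whose genes are best known from salicylic acid responses, pathogen defence and leaf senescence. All 7 tested members were lower in *nol12-4* by estimate, with a median log2 fold change of -1.92, 4 of them had an unadjusted p under 0.05 (background 7.91%), and DESeq2 called 3 of 9 lower (background 3.21%). WRKY30 (AT5G24110), which responds to pathogens and oxidative stress, had 0.258, 0.222 and 0.285 CPM in *nol12-4* replicates 1 to 3 and 5.38, 2.31 and 0.507 CPM in WT. The mutant libraries were close to each other and below all WT libraries, while WT replicate 3 came within reach of them and WT replicate 1 stood highest. WRKY30 had a log2 fold change of -3.41 ± 0.80 (± standard error here and in the following, adjusted p = 0.0906 by edgeR and 0.000114 by DESeq2). It was -2.45 without WT replicate 1 and -3.90 without WT replicate 3, and in this last fit edgeR also called it (adjusted p = 0.017).

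WRKY54 (AT2G40750), a partner of WRKY70 in salicylic acid signalling and senescence, had 0.815, 1.03 and 1.20 CPM in *nol12-4* and 7.45, 5.78 and 1.73 CPM in WT. Again no *nol12-4* library reached WT, and WT replicate 3 was the nearest. The log2 fold change of WRKY54 was -2.30 ± 0.52 (adjusted p = 0.0870 by edgeR and 0.000264 by DESeq2), and edgeR called it without WT replicate 3 (log2 fold change -2.70, adjusted p = 0.0125). WRKY62 (AT5G01900), which with WRKY38 acts against basal resistance, was counted only 1, 5 and 0 times in *nol12-4* and 15, 31 and 13 times in WT. These few reads did not overlap between the genotypes, and they gave a log2 fold change of -3.19 ± 1.00 (adjusted p = 0.147 by edgeR and 0.0469 by DESeq2), which was between -5.11 and -2.57 when single libraries were left out. WRKY62 passed the filter on low counts only through WT, where it was higher. Its estimate and separation are thus not independent of the filter. The same holds for the edgeR counts and medians that include it: all tested members, group III, separated genes and the salicylic acid and pathogen list below.

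The other tested members of group III overlapped between the genotypes. WRKY70 (AT3G56400), at which salicylic acid and jasmonate signalling meet, had 13.0, 5.78 and 14.0 CPM in *nol12-4* and 52.0, 34.0 and 7.83 CPM in WT. WT replicate 3 lay among the mutant libraries, and the log2 fold change of -1.52 ± 0.64 had an unadjusted p of 0.0481 (adjusted p = 0.245 by edgeR). WRKY53, a regulator of leaf senescence, had 3.66, 2.29 and 9.56 CPM in *nol12-4* and 23.4, 15.6 and 5.41 CPM in WT (log2 fold change -1.51 ± 0.65, adjusted p = 0.251 by edgeR). Here *nol12-4* replicate 3 was above WT replicate 3, and without it the log2 fold change was -2.31, while it was -1.02 without WT replicate 1. WRKY38 had 13, 4 and 29 counts in *nol12-4* and 91, 63 and 12 counts in WT (log2 fold change -1.92 ± 0.83, adjusted p = 0.252 by edgeR), and its estimate was -2.67 without *nol12-4* replicate 3 and -1.41 without WT replicate 1. WRKY46, a defence gene that also acts in osmotic stress, had 221, 123 and 367 counts in *nol12-4* and 395, 328 and 66 counts in WT. Its WT replicate 3 was the lowest of all 6 libraries, and the estimate of -0.22 ± 0.60 (adjusted p = 0.867 by edgeR) was positive without WT replicate 1 (0.16) and by limma-voom (0.0746).

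**Figure D2:**
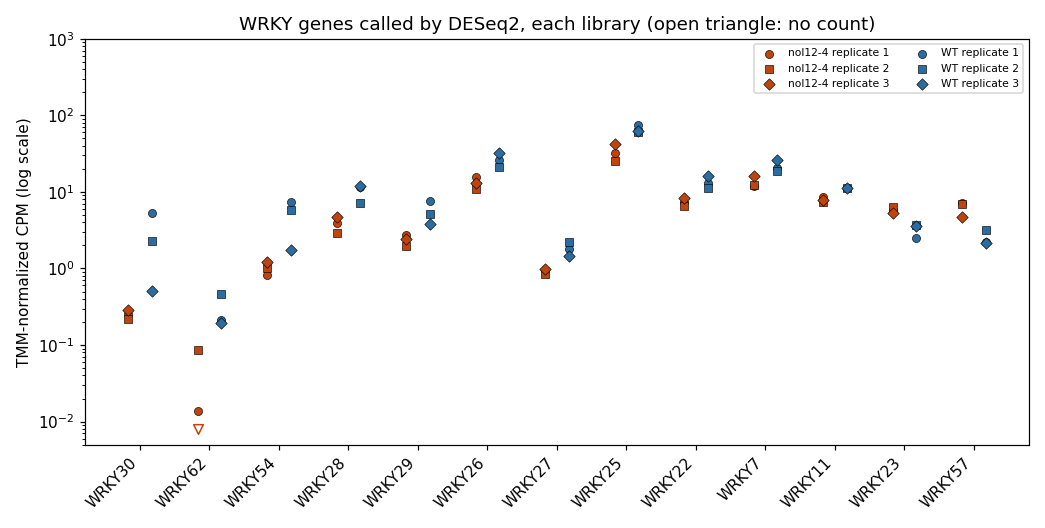
TMM-normalized CPM on a log axis is plotted for the 13 WRKY genes that DESeq2 called, with 1 point per library, *nol12-4* left of WT, and an open triangle for a library without a count. WT replicate 3 is the lowest WT library for WRKY30 (0.507 CPM) and WRKY54 (1.73 CPM), whereas the WT libraries of WRKY11 all lie at 11.1 CPM.

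The genes of groups I and II that DESeq2 called had closer WT libraries than those of group III, with an SD of log2 CPM in WT of at most 0.496 (WRKY29), while the 3 called group III genes had at least 0.633 (WRKY62). WRKY28 (AT4G18170), which activates the salicylic acid biosynthesis gene ICS1, had 3.93, 2.87 and 4.64 CPM in *nol12-4* and 11.6, 7.16 and 12.1 CPM in WT. All WT libraries stood well clear of the mutant libraries, WT replicate 3 being the highest here. The log2 fold change of -1.43 ± 0.27 had an adjusted p of 0.0681 by edgeR and 0.000168 by DESeq2. It ranged from -1.63 to -1.26 over the fits without single libraries.

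WRKY25 (AT2G30250) and WRKY26 (AT5G07100) are related group I genes that act with WRKY33 in heat tolerance, and WRKY25 is also a partner of the MPK4 pathway. WRKY25 had 32.7, 25.4 and 42.0 CPM in *nol12-4* and 75, 60.6 and 62.3 CPM in WT, the mutant mean being 0.506 of the WT mean. WRKY26 had 15.9, 10.9 and 13.1 CPM in *nol12-4* and 26.3, 21.5 and 31.8 CPM in WT, with a ratio of 0.5. In neither gene did a mutant library reach the lowest WT library. The log2 fold changes were -0.98 ± 0.21 for WRKY25 (adjusted p = 0.0780 by edgeR and 0.00141 by DESeq2) and -1.0 ± 0.2 for WRKY26 (adjusted p = 0.0738 by edgeR and 0.0017 by DESeq2).

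Group IIe held WRKY22, WRKY27 and WRKY29, all of which DESeq2 called. WRKY22 and WRKY29 act downstream of the MAP kinases that respond to bacterial flagellin, and WRKY27 takes part in the symptoms caused by Ralstonia. WRKY29 (AT4G23550) had 2.70, 1.97 and 2.41 CPM in *nol12-4* and 7.66, 5.17 and 3.85 CPM in WT (log2 fold change -1.24 ± 0.29, adjusted p = 0.0912 by edgeR and 0.00336 by DESeq2). WRKY22 (AT4G01250) had 7.39, 6.48 and 8.42 CPM in *nol12-4* and 12.9, 11.3 and 16.4 CPM in WT (log2 fold change -0.87 ± 0.19, adjusted p = 0.0834 by edgeR and 0.00481 by DESeq2). WRKY27 (AT5G52830) had 0.951, 0.838 and 0.983 CPM in *nol12-4* and 1.8, 2.23 and 1.45 CPM in WT (log2 fold change -0.98 ± 0.28, adjusted p = 0.131 by edgeR and 0.0215 by DESeq2). In each the mutant libraries formed a narrow band under WT. The other 5 members of group IIe showed no such separation except WRKY14 in the opposite direction, and the median over the 8 members was -0.10.

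In group IId, whose proteins bind calmodulin, all 6 estimates were lower in *nol12-4* (median -0.39) and DESeq2 called WRKY7 and WRKY11. WRKY11 (AT4G31550), which dampens basal resistance together with WRKY17, had 8.68, 7.35 and 7.85 CPM in *nol12-4* and 11.1 CPM in each of the 3 WT libraries. Its WT libraries were thus the tightest but for those of WRKY10, which had no count, and the log2 fold change of -0.48 ± 0.14 was the smallest among the 13 (adjusted p = 0.131 by edgeR and 0.0434 by DESeq2). WRKY7 (AT4G24240) had 12.0, 12.4 and 16.0 CPM in *nol12-4* and 20.3, 18.9 and 26.2 CPM in WT (log2 fold change -0.70 ± 0.19, adjusted p = 0.111 by edgeR and 0.0279 by DESeq2). The highest mutant library, replicate 3, stayed under WT. WRKY17, the partner of WRKY11, had 5.75, 7.86 and 5.78 CPM in *nol12-4* and 7.97, 8.12 and 5.31 CPM in WT, and its genotypes overlapped.

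The highest estimates came from group IIc, the only group in which DESeq2 called genes in both directions. WRKY57 (AT1G69310), known from drought tolerance and from leaf senescence under jasmonate and auxin, had 7.20, 6.97 and 4.69 CPM in *nol12-4* and 2.25, 3.22 and 2.13 CPM in WT. The mutant libraries were all higher, with replicate 3 nearest to WT, and the mutant mean was 2.48-fold the WT mean. The log2 fold change of 1.31 ± 0.26 had an adjusted p of 0.0726 by edgeR and 0.000493 by DESeq2. WRKY23 (AT2G47260), an auxin-responsive gene of root development and nematode feeding sites, had 5.87, 6.32 and 5.34 CPM in *nol12-4* and 2.51, 3.74 and 3.55 CPM in WT, again without overlap (log2 fold change 0.84 ± 0.21, adjusted p = 0.102 by edgeR and 0.0142 by DESeq2). As WRKY23 is expressed in roots, the root markers are to be read beside it: their sum was also higher in all *nol12-4* libraries, and the part of this in WRKY23 was not tested. WRKY14 of group IIe was the third higher gene at an unadjusted p under 0.05 (2.17, 2.97 and 2.11 CPM in *nol12-4* and 1.37, 1.54 and 1.60 CPM in WT), with a log2 fold change of 0.69 ± 0.25 and an adjusted p of 0.196 by edgeR.

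The 13 genes called by DESeq2 differed in how far the call rested on single libraries. When each library was left out of the DESeq2 fit in turn, WRKY26, WRKY28, WRKY30, WRKY54 and WRKY57 were called in all 6 fits, WRKY25 in 5, WRKY29 in 4, WRKY22 and WRKY23 in 3, WRKY7 and WRKY27 in 2, WRKY62 in 1 and WRKY11 in 0. Without WT replicate 3, edgeR called 4 members lower, WRKY29, WRKY30, WRKY51 and WRKY54 (background 1.28%). Without *nol12-4* replicate 3 it called WRKY7, WRKY15, WRKY22, WRKY25, WRKY28, WRKY33 and WRKY40 lower (background 2.73%) and WRKY57 higher (background 4.71%). With *nol12-4* replicates 1 and 2 left out, the libraries with high CCA1, the median log2 fold change of the members by edgeR was -0.32 (all genes -0.02). That fit has a lone mutant library, assumed to vary like WT, and at an unadjusted p under 0.05 edgeR gave 6 lower members (background 2.14%), WRKY2, WRKY25, WRKY26, WRKY28, WRKY47 and WRKY62. Taken by its level, *nol12-4* replicate 3 lay below all WT libraries for 18 of the 53 tested members (34.0%, background 24.8%) and above all WT libraries for 7 (13.2%, background 27.9%).

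Several abundant defence genes were set apart by *nol12-4* replicate 3. WRKY33 (AT2G38470), the activator of camalexin synthesis downstream of MPK3 and MPK6, had 54.2, 36.1 and 126 CPM in *nol12-4* and 170, 115 and 87.1 CPM in WT. WRKY40 (AT1G80840) had 6.85, 5.08 and 34.5 CPM in *nol12-4* and 41.2, 31.7 and 12.4 CPM in WT. In both genes the mutant replicates 1 and 2 were below all WT libraries and replicate 3 was among them, and the log2 fold changes of -0.78 ± 0.47 for WRKY33 (adjusted p = 0.393) and -0.88 ± 0.76 for WRKY40 (adjusted p = 0.550) did not pass edgeR. Without *nol12-4* replicate 3 they were -1.46 (adjusted p = 0.0499) for WRKY33 and -2.25 (adjusted p = 0.047) for WRKY40, and without *nol12-4* replicates 1 and 2 they were 0.02 and 0.28. CCA1 and TOC1 likewise set *nol12-4* replicates 1 and 2 apart from replicate 3, which was WT-like in both. Not every clock gene did so, and in PRR7 it was WT replicate 3 that stood apart. The part of the clock genes in these values was not tested.

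WRKY40 belongs with WRKY18 and WRKY60 to group IIa, whose proteins form complexes with each other and act together in basal defence. WRKY18 (AT4G31800) had 21.3, 15.6 and 60.4 CPM in *nol12-4* and 56.9, 41.1 and 31.3 CPM in WT (log2 fold change -0.41 ± 0.50, adjusted p = 0.676 by edgeR). WRKY60 (AT2G25000) had 1186, 789 and 777 counts in *nol12-4* and 1646, 1506 and 506 counts in WT (log2 fold change -0.43 ± 0.41, adjusted p = 0.592 by edgeR). WRKY18 followed WRKY40 in being highest in *nol12-4* replicate 3, and in WRKY60 that library was the lowest of the mutant. None of the 3 was called by edgeR or DESeq2 with all libraries. Without *nol12-4* replicate 3 the log2 fold change of WRKY18 was -1.23 (adjusted p = 0.0522 by edgeR), and DESeq2 then called WRKY18 and WRKY40 lower, while without WT replicate 3 it called WRKY60 lower.

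**Figure D3:**
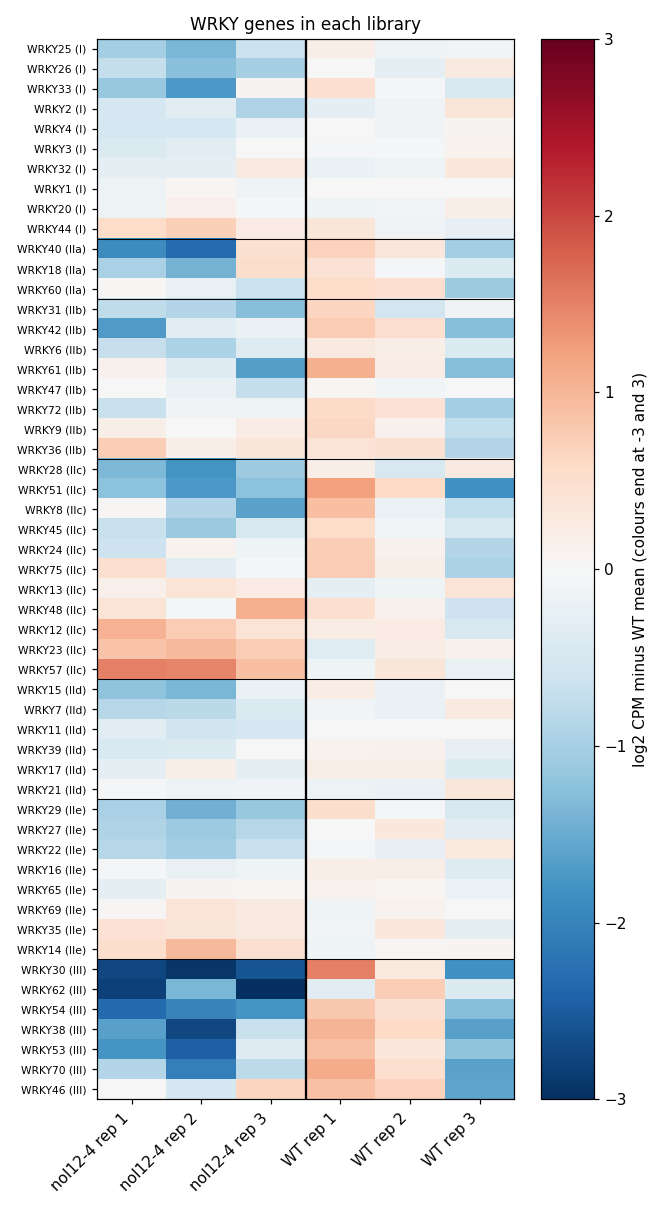
The log2 CPM of the 53 tested WRKY genes in each library, minus the WT mean of the gene, is shown as colour, with the *nol12-4* libraries left of the WT libraries and the genes ordered by structural group (in parentheses). In group III the WT replicate 3 column is blue for each gene, as are the mutant columns except for WRKY46 in replicates 1 and 3, and in group IIa *nol12-4* replicate 3 is red for WRKY40 and WRKY18.

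A further set had an unadjusted p under 0.05 by edgeR and an adjusted p above 0.05 by both tools. WRKY6 (AT1G62300), which acts in senescence and represses the phosphate exporter gene PHO1, had 23.5, 19.7 and 29.5 CPM in *nol12-4* and 45.8, 43.6 and 28.2 CPM in WT (log2 fold change -0.69 ± 0.23, adjusted p = 0.167 by edgeR). WRKY15, a gene of oxidative and osmotic stress, had 1095, 783 and 2323 counts in *nol12-4* and 2840, 1995 and 2278 counts in WT (log2 fold change -0.83 ± 0.32, adjusted p = 0.205 by edgeR). After normalization the overlap in both came from *nol12-4* replicate 3 and a single WT library that nearly coincided with it, replicate 3 in WRKY6 and replicate 2 in WRKY15. WRKY45, which activates the phosphate transporter gene PHT1;1, had 7.54, 5.52 and 8.70 CPM in *nol12-4* and 17.8, 11.4 and 8.62 CPM in WT (log2 fold change -0.80 ± 0.30, adjusted p = 0.201 by edgeR). WRKY51, which with WRKY50 takes part in repressing jasmonate responses, had 26, 14 and 27 counts in *nol12-4* and 145, 88 and 15 counts in WT (log2 fold change -1.92 ± 0.73, adjusted p = 0.206 by edgeR). As in most group III genes, WT replicate 3 of WRKY51 was at the level of the mutant libraries. WRKY2, WRKY4 and WRKY31 did not overlap between the genotypes and had log2 fold changes of -0.59 ± 0.24, -0.41 ± 0.15 and -1.07 ± 0.39, with adjusted p by edgeR of 0.220, 0.190 and 0.190. WRKY2, which acts in seeds and in the zygote, had 411, 366 and 322 counts in *nol12-4* and 469, 492 and 680 counts in WT. WRKY4, known from responses to necrotrophic fungi, had 15.5, 15.4 and 19.4 CPM in *nol12-4* and 22.3, 20.8 and 23.7 CPM in WT, and WRKY31 had 70, 52 and 51 counts in *nol12-4* and 185, 74 and 103 counts in WT.

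The WT libraries differed among themselves more for WRKY genes than for genes at large. The SD of log2 CPM over the 3 libraries of a genotype had a median of 0.291 in *nol12-4* and 0.386 in WT over the 53 tested members, whereas over all genes tested it was 0.263 in *nol12-4* and 0.261 in WT. The WT value was the larger for 36 of the 53 members (67.9%) and for 50.3% of all genes. A range of over 2-fold among libraries was found for 13 members in *nol12-4* (24.5%, background 20.5%) and for 21 members in WT (39.6%, background 22.9%). WT replicate 3 was the lowest WT library for 35 of the 53 members (66.0%, background 44.4%). In *nol12-4*, replicate 3 was the highest library for 24 members (45.3%, background 35.4%).

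The 5 tested members with the largest WT spread were WRKY30, WRKY51, WRKY38, WRKY70 and WRKY46, with SDs of log2 CPM in *nol12-4* of 0.161, 0.291, 1.03, 0.707 and 0.583 and in WT of 1.69, 1.60, 1.43, 1.43 and 1.37. All but WRKY51 belong to group III, and all were lowest in WT replicate 3. The log2 level of each gene was also set against its own WT mean, and over the 7 tested group III genes the median of this difference came to -1.77, -2.05 and -0.777 in *nol12-4* replicates 1 to 3, and to 0.895, 0.5 and -1.58 in WT replicates 1 to 3. By this median WT replicate 3 was lower than *nol12-4* replicate 3, and so it was in WRKY38, WRKY46, WRKY53 and WRKY70. In WRKY30, WRKY54 and WRKY62, the group III genes that DESeq2 called, WRKY levels went the other way, with *nol12-4* replicate 3 the lower. The group I genes differed less in WT, with medians of -0.466, -0.329 and -0.0989 in *nol12-4* and 0.00222, -0.0990 and 0.102 in WT. WRKY1, WRKY11 and WRKY47 had the smallest WT spread, with SDs in *nol12-4* of 0.119, 0.121 and 0.365 and in WT of 0.0121, 0.00446 and 0.0801.

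**Figure D4:**
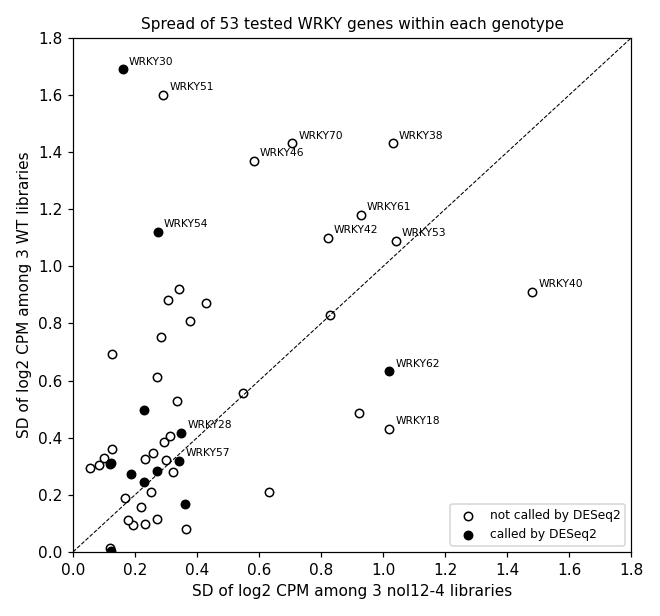
The SD of log2 CPM among the 3 *nol12-4* libraries is plotted against that among the 3 WT libraries for the 53 tested WRKY genes, with the line of equality dashed and the genes called by DESeq2 filled. WRKY30 (0.161 in *nol12-4*, 1.69 in WT) lies far above the line and WRKY40 (1.48 in *nol12-4*, 0.911 in WT) far below it.

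Levels were compared between genes per kilobase of annotated exon. In WT the highest were WRKY33 (35.6 ± 23.6 CPM per kb in *nol12-4*, 61.3 ± 20.9 in WT), WRKY25 (18.8 ± 4.67 in *nol12-4*, 37.1 ± 4.43 in WT), WRKY15 (15.1 ± 7.18 in *nol12-4*, 27.0 ± 3.97 in WT), WRKY40 (11.7 ± 12.4 in *nol12-4*, 21.4 ± 11.1 in WT) and WRKY70 (7.44 ± 3.06 in *nol12-4*, 21.3 ± 15.1 in WT; mean ± SD, n = 3 each). The WT libraries of WRKY33, WRKY25 and WRKY15 did not overlap each other, while WRKY15 overlapped WRKY40, and WRKY40, WRKY70, WRKY18 and WRKY39 overlapped each other and could not be ordered. Over the 58 genes with a count, 53 of the 57 pairs of neighbours in this order overlapped in WT. The 5 highest genes made up 39.1% of the summed WT level of the 59. By the *nol12-4* means WRKY33 and WRKY25 again came first, and WRKY39 and WRKY18 ranked before WRKY15, with WRKY40 at rank 8 and WRKY70 at rank 14. The *nol12-4* libraries of WRKY33, WRKY25, WRKY39, WRKY18 and WRKY15 overlapped each other, so these genes could not be ordered. WRKY33 ran from 17.8 to 62.3 CPM per kb there and WRKY15 from 10.4 to 23.4. The summed level of all members was 258, 226 and 365 CPM per kb in *nol12-4* and 523, 422 and 347 CPM per kb in WT, with *nol12-4* replicate 3 above WT replicate 3. In WT 14 members had 10 CPM per kb or more, 29 had from 1 to under 10, and 16 had under 1.

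**Figure D5:**
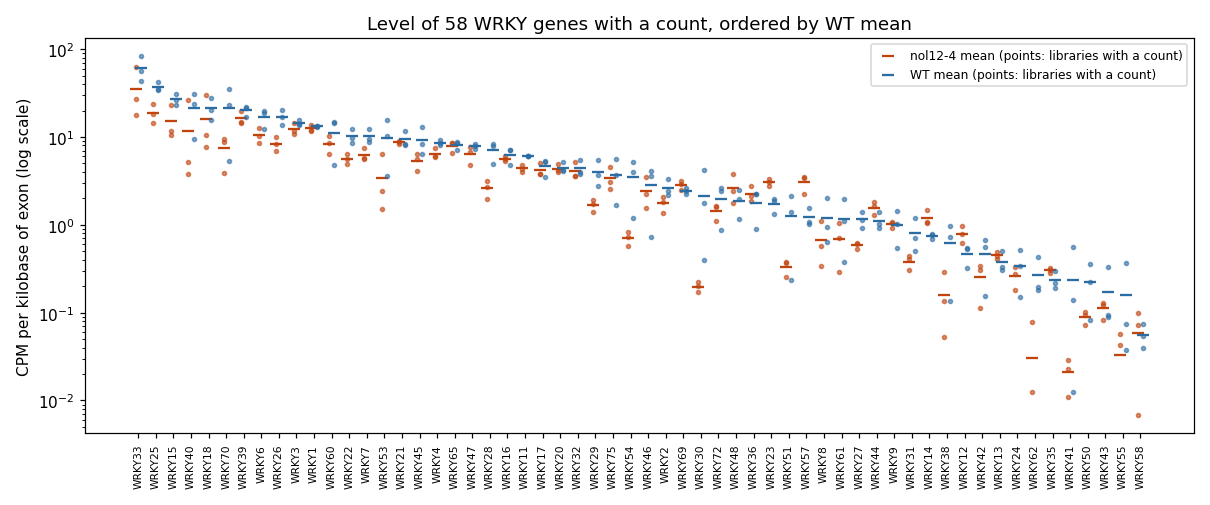
CPM per kilobase of exon on a log axis is plotted for the 58 WRKY genes with a count, in the order of the WT mean, with dashes for the means and points for libraries with a count, *nol12-4* left of WT. The WT means run from 61.3 for WRKY33 to 0.0563 for WRKY58, and the mutant mean of WRKY30 (0.198) lies far under its WT mean (2.12).

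The 6 members left out by the filter were scarce in seedlings. WRKY10, which acts in the endosperm and sets seed size, had 0 counts in all 6 libraries, where 3 counts would have been 0.0388 to 0.0513 CPM. WRKY41 had 2, 2 and 1 counts in *nol12-4* and 47, 11 and 1 counts in WT, and WRKY55, the neighbour of WRKY54 on chromosome 2, had 0, 4 and 4 counts in *nol12-4* and 31, 6 and 3 counts in WT. Both are group III genes, and in both WT replicate 1 held most of the reads and WT replicate 3 was like the mutant. WRKY43, WRKY50 and WRKY58 had between 1 and 11 counts per library in *nol12-4* and between 4 and 26 counts in WT. DESeq2 gave the lowest adjusted p of these genes to WRKY41 (0.0734).

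Sorted by reported roles, the 24 WRKY genes of salicylic acid and pathogen responses had 21 of 22 tested members lower by estimate (median log2 fold change -0.87), 11 lower at an unadjusted p under 0.05 by edgeR (background 7.91%) and 8 of 24 called lower by DESeq2 (background 3.21%). The 14 WRKY genes of development, seeds and nutrients had 6 higher and 6 lower estimates (median -0.13), with WRKY23 the only DESeq2 call (background 6.2% higher). The 21 genes in neither list had a median of -0.15, with 3 called lower (background 3.21%) and 1 higher (background 6.2%) by DESeq2. The lists are not complete: WRKY4 and WRKY27, linked above to necrotrophic fungi and to Ralstonia, are in neither. The medians of the lists depend on this sorting. By structure, the medians were -0.32 in group I, -0.43 in group IIa, -0.57 in group IIb and -0.09 in group IIc, beside -0.01 for all genes. W boxes were found in 7 of the 11 promoters of genes that DESeq2 called lower (63.6%), in 0 of the 2 called higher and in 15 of the 46 others (32.6%), against 32.4% of all protein-coding genes. This is a description of few promoters, split by calls from these same libraries, without a test. The 6 genes whose promoters are shown are all among these calls, and WRKY54, called lower, held no W box.

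Genes that work with WRKY factors were read in lists of 10 MAP kinase genes, 9 tested VQ genes and 12 targets and salicylic acid regulators. The VQ proteins bind WRKY factors. In each list edgeR called 0 genes (background 0.0691% lower and 0.226% higher). DESeq2 called 2, 2 and 1 of them lower (background 3.21%) and none higher (background 6.2%). At an unadjusted p under 0.05 edgeR gave 2, 2 and 3 lower (background 7.91%) and none higher (background 12.1%). Their median log2 fold changes were -0.28, -0.48 and -0.63. MKK1, a kinase upstream of MPK4, had 7.98, 4.97 and 6.69 CPM in *nol12-4* and 12.5, 11.9 and 10.9 CPM in WT, without overlap (log2 fold change -0.84 ± 0.20, adjusted p = 0.0912 by edgeR and 0.0076 by DESeq2). MPK11, a close relative of MPK4, had 0.897, 0.769 and 1.98 CPM in *nol12-4* and 4.76, 4.70 and 1.60 CPM in WT (log2 fold change -1.59 ± 0.53, adjusted p = 0.164 by edgeR and 0.0272 by DESeq2). SIB1, whose product binds WRKY33, had 2.11, 2.89 and 6.96 CPM in *nol12-4* and 16.9, 15.1 and 4.94 CPM in WT (log2 fold change -1.62 ± 0.57, adjusted p = 0.183 by edgeR and 0.031 by DESeq2). MPK11 and SIB1 shared the pattern of WRKY53, with WT replicate 3 low and *nol12-4* replicate 3 above it. MVQ1 (AT1G28280) had 13.5, 11.3 and 11.7 CPM in *nol12-4* and 17.9, 16.1 and 16.8 CPM in WT (log2 fold change -0.48 ± 0.14, adjusted p = 0.128 by edgeR and 0.0484 by DESeq2).

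Of the targets, FRK1, a receptor-like kinase gene activated by WRKY6, was the only DESeq2 call, and it was put on the list because the study names it from these libraries, so it is not independent evidence. FRK1 had 5.33, 3.40 and 5.54 CPM in *nol12-4* and 85.4, 63.6 and 12.0 CPM in WT, without overlap and with WT replicate 3 the lowest of WT (log2 fold change -3.49 ± 0.67, adjusted p = 0.0683 by edgeR and 1.38e-07 by DESeq2). CBP60g, a regulator of salicylic acid synthesis, had 7.43, 4.99 and 18.5 CPM in *nol12-4* and 38.8, 21.4 and 16.2 CPM in WT (log2 fold change -1.30 ± 0.52, adjusted p = 0.225 by edgeR). NPR1, the salicylic acid co-activator, had 17.9, 20.1 and 25.3 CPM in *nol12-4* and 32.3, 26 and 28 CPM in WT, with a log2 fold change of -0.45 ± 0.17 (adjusted p = 0.212 by edgeR). NPR1 was below WT in every mutant library, and CBP60g overlapped through *nol12-4* replicate 3.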

How the data were processed

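The libraries were rRNA-depleted, stranded and paired-end, and per the labels and the study's methods the authors aligned reads to TAIR10 (Ensembl release 29) with HISAT2 (version 2.0.4), and HTSeq (version 0.6.0, reverse strand, minimum alignment quality 0) gave the counts of each Araport11 gene. The deposited values are raw counts per gene without normalization. Reads aligned to several places (10.3 to 12.1% of a library) were not counted for any gene, and summary lines (20.6 to 25.0%) were left out here. The 11 members that overlap another gene do so on the opposite strand, which the counting separated. Depth was 56627497 to 75001252 counts, and floors cover counting error only.

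The comparison of genotypes used edgeR (4.0.16, in R 4.3.3) with TMM factors, filterByExpr, robust quasi-likelihood F test, two-sided, genotype as the only term, Benjamini-Hochberg adjustment over all genes tested, threshold 0.05. Standard errors follow from the log2 fold change and F. DESeq2 (1.42.0), voom (limma 3.58.1), other factors and filters, a replicate block and left-out libraries served as alternatives. DESeq2 with left-out libraries and the fits without *nol12-4* replicates 1 and 2 were added after seeing the data. SDs are of log2 CPM with a prior count of 2. Procedures were tested on simulated data. Symbols, exons and promoters came from the RefSeq annotation of TAIR10.1, which held all 59 members.

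Members and lists were chosen with earlier results of these data known. Named with values are members called by edgeR or DESeq2 or at an unadjusted p under 0.05, WRKY25, WRKY54, group IIa, WRKY6, WRKY33, WRKY46, WRKY53 and WRKY70, the 5 highest WT levels per kilobase, the 5 largest WT SDs, and genes of the other lists called or at an unadjusted p under 0.05. WRKY17, WRKY41, WRKY47, WRKY55 and the clock and tissue markers were named after their values were seen.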

Additional observations from a re-analysis of the deposited data

How the results depend on the processing

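The number of WRKY genes called depends on the tool and on single libraries. With DESeq2 in place of edgeR, 11 were lower and 2 higher, and with library size alone 1 was higher (WRKY57, background 1.73%). Under limma-voom, non-robust edgeR, upper-quartile and median-of-ratios factors, both filters, and without organelle and rRNA genes no member was called. In each direction these settings called at most 0.52% of all genes. Leaving out single libraries gave 0 to 7 lower (0 to 2.73% of all genes) and 0 to 1 higher members (0 to 4.71%) by edgeR. At an unadjusted p under 0.05 edgeR gave 11 to 24 lower (4.25 to 11.5% of all genes over these fits). The 24 came without WT replicate 3, among 55 members tested (background 9.63%). They include WRKY41 and WRKY50, which the main fit did not test. Both passed the filter of that fit only through WT, where they were higher. Their calls, and the median of that fit, are thus not independent of the filter. DESeq2 called 4 to 17 lower (0.859 to 6.73%) and 1 to 2 higher (2.32 to 8.52%). The edgeR medians ran from -0.67 (without WT replicate 3) to -0.24 (without WT replicate 1). Without *nol12-4* replicates 1 and 2, 18 estimates were higher, the unadjusted calls were 6 lower and 0 higher, and DESeq2 called 0 lower and 0 higher. That fit holds a lone mutant library, so its lack of adjusted calls cannot tell WRKY genes from other genes. There WRKY18 (0.48), WRKY33 (0.0202), WRKY40 (0.28) and WRKY46 (0.31) turned positive. WRKY46 was also positive by limma-voom (0.0746) and ranged from -0.67 to 0.16 without single libraries, and WRKY1 was 0.0307 with library size alone. The causes were not tested. Library size alone moved the median of all genes to 0.09, and that of the members to -0.32.

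Nothing states that libraries with the same replicate number were paired. Deviations of same-numbered libraries correlated at 0.164, -0.113 and 0.0349, and those of other pairs at -0.241 to 0.2. Whether same-numbered libraries shared a batch was not tested. With the replicate number as a block, edgeR called 0 members, and over all genes 1 of 21705. Without adjustment it gave 16 lower (background 7.86%) and 3 higher members (background 11.8%), and the median was -0.42. The median WT spread was 0.386 with a prior count of 0.5. WT replicate 3 was the lowest WT library for 33 members with median-of-ratios factors and 33 with library size alone, and 21 members held a W box in the 250 bases alone.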

Other observations

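Genes at the end of salicylic acid and camalexin signalling did not order the genotypes. PR1, the classical marker gene of salicylic acid responses, had 13.4, 7.06 and 0.349 CPM in *nol12-4* and 12.8, 4.99 and 1.33 CPM in WT, so that both genotypes spanned the same range, and replicate 3 was the lowest library in each. PAD3, which makes camalexin and is activated by WRKY33, had 5.65, 4.07 and 4.4 CPM in *nol12-4* and 13.1, 8.54 and 1.98 CPM in WT. CYP71A13, which acts before PAD3 in the same pathway, had 1.02, 0.273 and 0.142 CPM in *nol12-4* and 2.48, 0.764 and 0.0447 CPM in WT. In PAD3 and CYP71A13 the highest library was WT replicate 1 and the lowest WT replicate 3. The log2 fold changes by edgeR were 0.12 ± 1.12 for PR1, -0.74 ± 0.57 for PAD3 and -1.19 ± 1.17 for CYP71A13, with adjusted p of 0.964, 0.502 and 0.602.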
